A study of Homo sapiens with 4 samples.

Results

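The regions described here are the peaks of FLAG-tagged ZFR on 3 clusters of KRAB zinc finger genes on chromosome 19. A peak was a member when its interval lay wholly within 19900000 to 24200000, 52300000 to 53950000 or 56100000 to 58600000 of chromosome 19 in the hg19 build. The windows are called 19p12, 19q13.41 and 19q13.43 after the bands that hold most of each. They held 2891 of the 595484 listed peaks of the 4 libraries. The eCLIP lists gave 2289 (replicate 1) and 287 (replicate 2) of these, and the input lists 253 and 62. The rest of chromosome 19 held 33350 peaks. The lists are very unequal in length, at 479308 and 41904 peaks genome-wide for eCLIP and 63068 and 11204 for input, so values of input 2 and of eCLIP replicate 2 rest on few window peaks. An absent peak in a short list therefore says little about the RNA.

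In eCLIP, ultraviolet light links a protein to the RNA it touches, and the linked fragments are pulled down and sequenced. All 4 libraries came from Flp-In T-REx-293 cells, a human embryonic kidney line, as a polyclonal population that carried FLAG-ZFR at the FRT site. The transgene was induced with doxycycline at 1 µg/mL for 48 to 72 h and cells were crosslinked at 400 mJ/cm2. The 2 eCLIP libraries hold RNA pulled down with FLAG-ZFR, and the 2 size-matched inputs hold size-selected RNA taken without it. The inputs carried the same transgene and the same induction, so the libraries contain no cells without FLAG-ZFR. Separate cultures are not mentioned for the libraries of either group, so the p-values refer to variation among these libraries alone, and that variation may be technical.

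KRAB zinc finger proteins form the largest family of human transcription repressors. Their arrays of C2H2 fingers bind DNA, many of them in transposable elements, and the KRAB domain recruits TRIM28, which brings the histone methyltransferase SETDB1 and HP1 proteins. The finger array of each gene is usually encoded in one long final exon, behind short exons for the KRAB domain and long introns. The clusters grew by tandem duplication, so neighbouring genes resemble each other and reads can match more than one copy. ZFR is itself a zinc finger protein, but it belongs to the DZF family and binds RNA.

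In the RefSeq gene table for GRCh38.p14, a later build used here for names and neighbours only, all 35 zinc finger symbols listed for 19p12 were found, from ZNF506 to ZNF254. Between them lay 37 protein-coding genes, 35 of which carried a zinc finger symbol. For 19q13.41, 39 of 39 symbols were found, from ZNF577 to ZNF331, with 47 protein-coding genes between them, 40 of them zinc finger genes. The other genes there included PPP2R1A, the scaffold subunit of protein phosphatase 2A. For 19q13.43, 44 of 44 were found, from ZNF542P to ZNF606, with 53 protein-coding genes between them and 45 zinc finger genes. AURKC, a kinase of meiosis, and DUXA, a homeobox gene, lay among these. Each count covers only genes between the first and last listed symbol, which need not span the whole window. The peak lists carry gene identifiers without names, and 0 of the 17764 identifiers matched the table, so genes are given below by strand and by the hg19 positions of their first and last peak. Without names, a zinc finger gene and another gene of a window could not be told apart.

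The first question was how much of the signal on chromosome 19 fell in the clusters, and whether that differed between eCLIP and input. The windows held 8.31% of the chromosome 19 peaks of eCLIP replicate 1 (95% Wilson interval 7.99 to 8.64) and 6.56% of eCLIP replicate 2 (5.87 to 7.34). The inputs stood at 7.71% (6.84 to 8.67) and 5.97% (4.69 to 7.58). The groups overlapped, since input 1 lay between the eCLIP libraries. The group means were 7.44% ± 1.23 (SD, n = 2) for eCLIP and 6.84% ± 1.23 (SD, n = 2) for input. The difference of mean log2 shares was 0.12 in favour of eCLIP (two-sided exact permutation test over the 4 libraries, p = 0.67). With 2 libraries against 2, that test cannot give a p below 0.33. Intervals cover counting error only and treat each listed peak as independent.

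**Figure D1:**
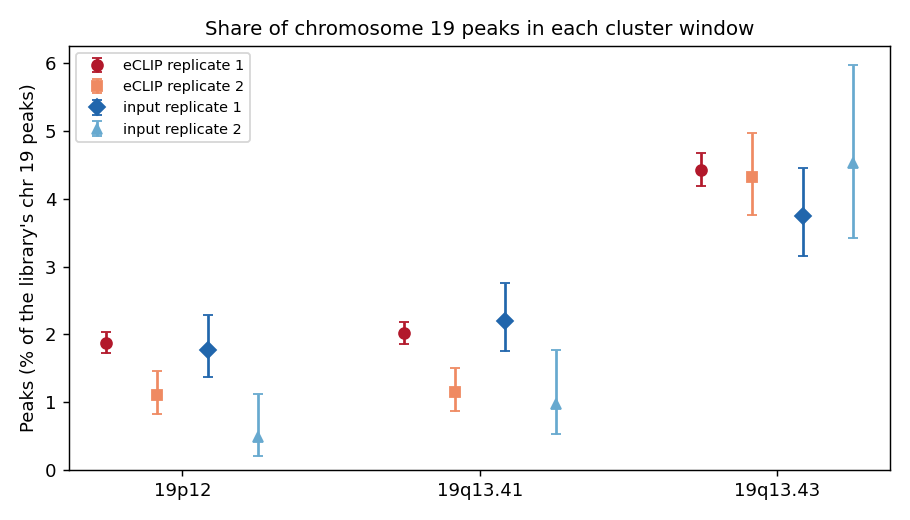
Peaks in each window as a percentage of the chromosome 19 peaks of the library, with one point per library and bars for the 95% Wilson interval. In 19p12 and 19q13.41 the libraries numbered 2 lay below those numbered 1, and in 19q13.43 all 4 lay between 3.75% and 4.53%.

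In every library 19q13.43 held a larger share than either other window, though the windows are of unequal length. 19q13.43 took 4.43% and 4.32% of the chromosome 19 peaks in eCLIP and 3.75% and 4.53% in the inputs. 19q13.41 took 2.01% and 1.14% in eCLIP against 2.19% and 0.963%. 19p12, the longest window, took 1.87% and 1.10% in eCLIP against 1.77% and 0.482%, the last of these from 5 peaks. In these 2 windows the order of the libraries followed the replicate number and not the group. The exact permutation test gave p = 0.67 for 19p12 and p = 1 for the other windows, over the 3 windows tested singly.

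Per length of genome, 19p12 was the sparsest window. In eCLIP replicate 1 it held 120 peaks per Mb over 4.3 Mb, 19q13.41 held 336 over 1.65 Mb and 19q13.43 held 488 over 2.5 Mb. The rest of chromosome 19, from its first to its last peak and centromere included, held 502 per Mb. In eCLIP replicate 2 the densities were 11.2, 30.3 and 75.6 per Mb against 81.2 on the rest. Input 1 gave 13.5, 43.6 and 49.2 against 60.2, and input 2 gave 1.16, 6.06 and 18.8 against 19.4. All 4 libraries thus ordered the windows alike, with 19q13.43 densest and 19p12 sparsest.

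Peaks in 19p12 and 19q13.41 were also weaker in eCLIP replicate 1. Of the peaks there, 44.9% in 19p12 and 38.6% in 19q13.41 rested on 3 reads, the lowest number listed, against 18.9% in 19q13.43 and 16.2% on the rest of the chromosome. The mean was 4.89, 4.58 and 7.99 reads per peak in the 3 windows and 8.59 on the rest. A deposited p-value of at most 0.001 was reached by 15.1%, 18.9% and 39.6% of the peaks in the windows and by 38.8% on the rest. In eCLIP replicate 2, 52.1%, 40.0% and 40.7% of the peaks held 3 reads against 42.9% on the rest, so there only 19p12 lay above the rest. The other measures did not show weaker peaks in 19p12 in that library. Its windows had means of 5.69, 4.00 and 5.31 reads against 5.27 on the rest. The p-value limit was reached by 29.2%, 18.0% and 21.2% against 23.8%. In the inputs the windows ran from 62.5% to 70.7% and from 48.9% to 60.0%, against 60.8% and 48.5% on the rest. The median width was 27 to 36 bases over all windows and libraries.

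Few positions were shared between libraries. Merging touching and overlapping peaks of the 4 lists on each strand gave 2130 regions in the windows. Of these, 2009 (94.3%) were listed in 1 library, 112 in 2, 5 in 3 and 4 in all 4. On the rest of chromosome 19, 92.8% of 26435 merged regions were listed in 1 library. In eCLIP replicate 2, 38.3% (32.9 to 44.1) of the window peaks overlapped a peak of eCLIP replicate 1 by at least 1 base, against 35.6% (34.2 to 37.1) on the rest of the chromosome. Those peaks met input 1 in 2.79% of cases and input 2 in 8.36%.

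A second question was which peaks were found in both eCLIP lists and in neither input. Of the 109 window peaks of eCLIP replicate 1 that overlapped one of eCLIP replicate 2, 97 overlapped no input peak, which is 7.06% (5.82 to 8.54) of the 1374 such peaks on chromosome 19. The windows held 8.31% of all chromosome 19 peaks of that library, inside this interval. They lay in 33 genes and formed 74 distinct intervals, because a peak inside overlapping genes is listed once for each. Exchanging the roles of eCLIP and input gave 6 window peaks of input 1 found in input 2 and in neither eCLIP list. The rest of chromosome 19 held 55 such peaks. They came from shorter lists that had to miss the far longer eCLIP lists, so the 6 and the 97 cannot be set against each other. With eCLIP peaks limited to a p-value of 0.001, 15 of 294 remained in the windows, or 5.10% (3.12 to 8.25).

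19q13.43 held most of these sites. Its 66 such peaks made up 5.41% (4.28 to 6.83) of its eCLIP replicate 1 peaks, against 3.06% (1.92 to 4.85) in 19q13.41 and 2.72% (1.63 to 4.51) in 19p12. The rest of the chromosome stood at 5.06% (4.79 to 5.33). The intervals of the windows overlapped one another, and that of 19p12 lay below that of the rest. Their peaks had a median of 11.5 reads in 19q13.43, 6 in 19q13.41 and 7 in 19p12, against 12 on the rest.

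The peaks of 19q13.43 were concentrated in one stretch, chosen after the values were seen as the 3 neighbouring 100-kb bins with most eCLIP replicate 1 peaks. It ran from 58200001 to 58500000. For eCLIP it held 443 of the 997 distinct peaks of the window (44.4%) in replicate 1 and 109 of 142 (76.8%) in replicate 2. For the inputs it held 36 of 100 (36.0%) and 19 of 34 (55.9%). The choice of the stretch favours a high share in eCLIP replicate 1, and input 2 lay above it all the same. The plus strand carried 368, 99, 25 and 18 of these peaks in the same order. Of the 66 listed peaks found in both eCLIP lists and no input, 53 (80.3%) lay there, 50 of them on the plus strand. That count includes repeats for overlapping genes. As distinct peaks they were 39 of 51, to be set beside the 109 of 142 of eCLIP replicate 2.

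The busiest bin, from 58300001 to 58400000, held 234 distinct peaks in eCLIP replicate 1 and ranked 2nd of the 588 bins of chromosome 19. With 58 peaks in eCLIP replicate 2 it ranked 4th. In the inputs it held 17 and 14 peaks and ranked 37th and 8th. A median bin of the chromosome held 24 peaks in eCLIP replicate 1. High counts in this bin were therefore common to eCLIP and input.

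**Figure D2:**
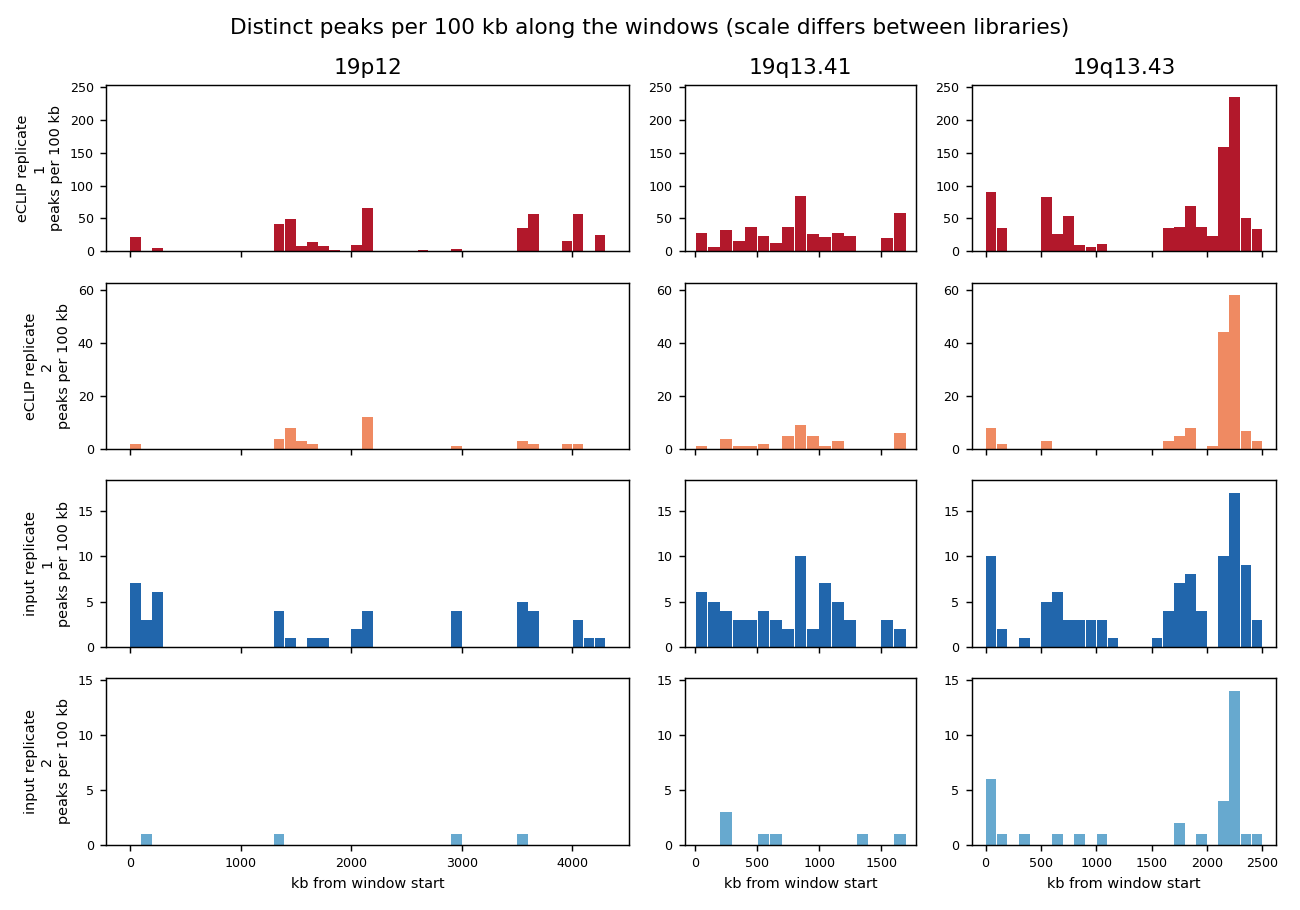
Distinct peaks per 100 kb along each window, with one row per library and the distance from the window start in kb on the horizontal axis. The vertical scale differs between rows; the highest bar of 19q13.43 is the bin with 234 peaks in eCLIP replicate 1 and 14 in input 2, and the last bin of 19q13.41 is cut by the window's end.

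In the other windows the busiest bins ranked lower. In 19p12 the bin from 22000001 to 22100000 held 66 distinct peaks in eCLIP replicate 1 and 12 in eCLIP replicate 2, ranking 149th and 98th. It held 4 peaks in input 1 and none in input 2. Of the 43 bins of 19p12, 21 held no peak in eCLIP replicate 1 and 39 held none in input 2. In 19q13.41 the bin from 53100001 to 53200000 held 84 and 9 peaks in eCLIP, ranking 116th and 134th, and 10 and 0 in the inputs. Only 1 of the 17 bins of 19q13.41 was empty in eCLIP replicate 1, so its peaks were spread more evenly along the window than those of 19p12.

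Genes were compared next. Peaks in the windows were listed for 160 genes, 93 on the plus and 67 on the minus strand. The eCLIP lists named 146 and 65 of them, and the inputs 92 and 31. Over the genome, 15839 and 7728 of the 17764 identifiers were named by the eCLIP lists and 11275 and 5891 by the inputs. Both eCLIP libraries listed 63 of the genes and all 4 libraries 16. There were 46 genes listed by eCLIP replicate 1 alone, and 12 listed by an input and by neither eCLIP library. How often genes are shared or unshared in this way over the genome was not counted. With lists of such unequal length, these counts are therefore not read as a trait of the windows. The median gene had 6 peaks in eCLIP replicate 1, and 18 genes were enough to reach 50% of its peaks. All listed peaks lay inside a window for 155 genes; values of the others include their peaks outside.

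The share of the library's peaks in each gene was compared with limma across the 8914 genes of the genome that had at least 10 peaks over the 4 libraries. Of the 160 genes, 71 passed this filter, mostly on the long list of eCLIP replicate 1, and 50 of the 71 had no peak in input 2. After Benjamini-Hochberg adjustment limma called 0 of the 71 higher and 0 lower in eCLIP, with a background of 0% in each direction over all genes; no adjusted p lay below 0.99. Before adjustment, p fell under 0.05 in 0 genes of the 71 in either direction, with a background of 1.26% higher and 0.696% lower. The median log2 difference of eCLIP minus input was 0.29 over the 71 genes, 0.25 over 602 genes of the rest of chromosome 19 and 0.16 over all genes. It was 0.64 in 19p12, 0.08 in 19q13.41 and 0.27 in 19q13.43.

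In 25 of the 71 genes (35.2%) the eCLIP libraries each had a larger share than either input, with a background of 21.1% over all genes and 27.6% on the rest of chromosome 19. They lay below both inputs in 4 (5.63%), with a background of 10.2%. In 50 of the 71 genes, 70.4%, the share in input 2 was 0 because the list had no peak there, against 4939 of the 8914 genes, 55.4%, over the genome. The part of these absent peaks in the counts was not tested. Several of the genes overlap and share peaks, so the 25 are not independent.

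Per window, the 5 genes with most sites in both eCLIP lists and no input are described next. That choice favours eCLIP over input, so the order of their shares is a description and supports no difference between the groups.

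In 19p12 the gene with most sites found in both eCLIP lists and no input was ENSG00000198521.7, on the minus strand from 21992173 to 22033979, with 5 such sites. It held 75 and 12 peaks in eCLIP and 6 and 0 in the inputs. As shares these were 1.56 and 2.86 per 10000 peaks in eCLIP against 0.951 and 0. The log2 difference was 1.63 (SE 0.82), with an adjusted p of 0.99 in limma. It was 0.86 without input 2 and 2.40 without input 1, and 0.78 with a pseudocount of 2 in place of 0.5. By share of the reads in peaks the order was the same, at 1.38 and 2.22 per 10000 reads against 0.722 and 0.

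The other 4 genes named by this count in 19p12 had 1 or 2 such sites each. A plus-strand gene from 21588252 to 21667263 and an overlapping one from 21583427 to 21592990 had 2 each. The first had 15 and 2 eCLIP peaks against 1 and 0, and the second 13 and 2 against 0 and 0. The minus-strand gene from 23514987 to 23571827 had 56 and 2 eCLIP peaks against 4 and 0. Its shares of 1.17 and 0.477 per 10000 peaks in eCLIP overlapped the 0.634 of input 1. The plus-strand gene from 21265045 to 21307788 held 44 and 10 peaks against 2 and 1, or 0.918 and 2.39 against 0.317 and 0.893 per 10000, so that eCLIP replicate 1 and input 2 were nearly level.

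In 19q13.41 the gene with most peaks lay on the minus strand from 53102830 to 53193424. The eCLIP libraries listed 83 and 9 peaks there and the inputs 10 and 0. Shares were 1.73 and 2.15 per 10000 peaks for eCLIP, with 1.59 and 0 for the inputs. By reads in peaks, eCLIP replicate 1 at 1.28 per 10000 lay below input 1 at 1.36, so the order turned for number 1. On the plus strand ENSG00000167562.7, from 53059410 to 53089943, held 30 and 5 peaks in eCLIP and none in either input. Its log2 difference was 1.47 (SE 0.72), whose size is set by the pseudocount because both inputs are at 0: it was 2.17 with a pseudocount of 0.25 and 0.53 with 2. The fit gave an unadjusted p of 0.053, the lowest among the 71 genes, and an adjusted p of 0.99 in limma. Without eCLIP replicate 2 the log2 difference was 1.17, from a lone eCLIP library against 2 inputs without peaks in the gene. Over the alternatives that kept all 4 libraries the adjusted p in limma ran from 0.131 to 0.999. The plus-strand gene from 53037492 to 53066606 overlaps it and held 27 and 5 peaks against 2 and 0. All 3 of these genes had 3 sites found in both eCLIP lists and no input.

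The remaining pair in 19q13.41 had 2 such sites each. The plus-strand gene from 53901437 to 53929807 had 38 and 5 eCLIP peaks against 1 and 0, and the minus-strand gene from 53211326 to 53237732 held 26 and 5 against 2 and 0. Their shares were 0.793 and 1.19 against 0.159 and 0 per 10000 for the first and 0.542 and 1.19 against 0.317 and 0 for the second.

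In 19q13.43 all 5 genes named by the same rule lay on the plus strand between 58193808 and 58376457. The gene from 58281306 to 58331167 held 113 and 34 peaks in eCLIP, the most of any gene in the windows in either eCLIP list. It held 10 and 2 in the inputs. Its shares were 2.36 and 8.11 per 10000 peaks in eCLIP against 1.59 and 1.79, and the log2 difference was 1.18 (SE 0.82). Without eCLIP replicate 2 it was 0.39, and without eCLIP replicate 1 it was 1.98. The gene from 58193808 to 58263810 had 110 and 28 eCLIP peaks and 4 and 3 input peaks. Its shares were 2.29 and 6.68 per 10000 in eCLIP and 0.634 and 2.68 in the inputs. There eCLIP replicate 1 lay below input 2. The log2 difference of 1.24 (SE 0.83) was 0.56 without eCLIP replicate 2, 0.50 without input 1, 1.92 without eCLIP replicate 1 and 1.98 without input 2.

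The next genes show the opposite order in the libraries numbered 2. A pair of identifiers with starts at 58331116 and 58331130 and a common end at 58367456 listed the same numbers of peaks, 107 and 28 in eCLIP and 9 and 8 in the inputs. Their share was 6.68 per 10000 peaks in eCLIP replicate 2 and 7.14 in input 2. By reads in peaks the first of them stood at 3.88 and 7.62 per 10000 reads in eCLIP against 1.20 and 3.04, so the order depended on whether peaks or reads were shared out. The gene from 58361264 to 58376457 overlaps both and held 36 and 14 peaks against 1 and 8. It took 0.751 and 3.34 per 10000 peaks in eCLIP against 0.159 and 7.14, with input 2 highest. By reads in peaks it stood at 2.16 and 5.75 per 10000 in eCLIP against 0.120 and 3.53, so eCLIP replicate 2 was highest, and the log2 difference moved from -0.03 to 1.37. Without input 2 it was 1.73, and without input 1 it was -1.80.

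**Figure D3:**
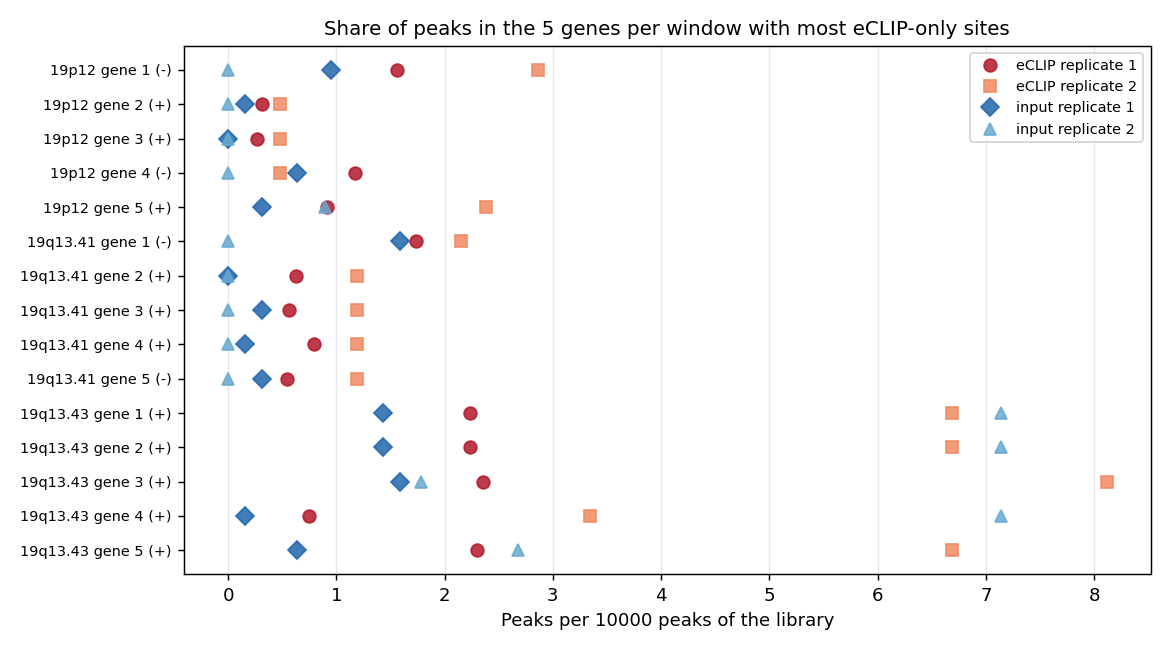
Peaks per 10000 peaks of the library in the 5 genes of each window with most peaks found in both eCLIP lists and no input, ordered by that number and with their strand in brackets; each symbol is one library. The choice of genes favours low input values; input 1 still reached 0.951 in a gene of 19p12 and 1.59 in one of 19q13.41, and input 2 lay highest, at 7.14, in 3 overlapping genes of 19q13.43.

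The log2 difference was above 0 in 51 of the 71 tested genes (71.8%). The background was 59.7% over all genes and 62.1% on the rest of chromosome 19. Peaks absent from input 2 and genes that share peaks enter this count too, and their part was not tested. None of the genes lower in eCLIP passed the test. The lowest unadjusted p in this direction, 0.21 in limma, belonged to ENSG00000063244.8, on the plus strand of 19q13.43 from 56165977 to 56186012. This gene also had 4 peaks found in both eCLIP lists and no input. The eCLIP lists had 33 and 6 peaks in it and the inputs 9 and 5, which made 0.688 and 1.43 per 10000 beside 1.43 and 4.46, with a log2 difference of -1.03 (SE 0.80) and an adjusted p of 0.99 in limma. By reads in peaks it took 1.51 and 1.35 per 10000 in eCLIP against 1.36 and 4.11, so the lower value held for number 2 and not for number 1. ENSG00000121406.4, on the plus strand from 58038848 to 58067475, held 9 and 0 peaks against 2 and 1, with a log2 difference of -0.86 (SE 0.68). On the minus strand of 19p12 the gene from 20114863 to 20144313 held 5 and 0 peaks against 6 and 0, at -0.63 (SE 0.55). Without input 1 this last value was 0.14, so that library set its direction, and without input 2 it was -1.40. For ENSG00000063244.8 the value was -0.35 without input 2 and -1.71 without input 1, and for ENSG00000121406.4 it was -0.48 without input 2. Among genes higher in eCLIP, the third lowest p, 0.085, fell on a plus-strand gene from 58193823 to 58201766 with 13 and 3 peaks in eCLIP and none in the inputs. Its log2 difference was 0.95 (SE 0.53), with an adjusted p of 0.99 in limma. Without eCLIP replicate 2 the log2 difference was 0.63, from a lone eCLIP library against inputs without peaks in the gene. Over the alternatives that kept all 4 libraries its adjusted p in limma ran from 0.336 to 0.998.

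Single sites showed how the strongest signals were placed. The strongest in 19p12 was found in every library, on the minus strand from 22877621 to 22877706, an extent of 86 bases. In eCLIP it held 287 reads in 2 peaks and 70 reads in 1 peak, and in the inputs 105 reads in 2 peaks and 7 in 1. That was 11.4% and 25.6% of the reads in 19p12 peaks in eCLIP and 35.0% and 30.4% in the inputs. The next strongest peak of the window held 22, 9, 9 and 7 reads in the same order. With this site left out, 19p12 took 0.964% and 0.886% of the chromosome 19 reads in peaks in eCLIP against 1.60% and 0.316% in the inputs, in place of 1.09% and 1.19% against 2.44% and 0.454%. The site's gene identifier listed no peak anywhere else.

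The other sites of all 4 libraries lay in 19q13.43. On the plus strand at 56185607 to 56185667 the overlapping peaks held 34 and 12 reads in eCLIP and 5 and 20 in the inputs. At 57816122 to 57816143 on the plus strand they held 17 and 4 against 3 and 3. At 58535385 to 58535402 on the minus strand they held 8 and 4 against 15 and 7. These read numbers are not scaled, and the libraries differ in their total reads in peaks. The totals were 3075352 (eCLIP replicate 1), 229647 (eCLIP replicate 2), 249245 (input 1) and 102084 (input 2). Relative to its total, each eCLIP library had fewer reads at all 3 sites than the input of the same number. At the first and second site eCLIP replicate 2 still lay above input 1, so the groups overlapped there. A difference at these sites was not tested. Strong peaks of 1 group also occurred: the strongest in 19q13.43 in input 2 held 28 reads, on the minus strand at 56415135 to 56415159, and overlapped a peak of input 1 and none of either eCLIP list.

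Among sites of both eCLIP lists and no input, the lowest p-values in 19q13.43 fell on the plus strand at 58374501 to 58374534, with 23 and 10 reads, and at 58373153 to 58373187, with 34 and 9 reads. The third, at 57815854 to 57815881, held 50 and 8 reads and was the strongest eCLIP replicate 1 peak of the window. In 19p12 they lay on the plus strand at 21590275 to 21590308, with 13 and 7 reads, and at 21588648 to 21588659, with 10 and 6, and on the minus strand at 23551055 to 23551122, with 7 and 6. In 19q13.41 they lay on the plus strand at 53062848 to 53062876, with 9 and 6 reads, and at 53060115 to 53060155, with 11 and 4, and on the minus strand at 53158235 to 53158273, with 6 and 4. Reads at these sites were thus fewer in 19q13.41 than in 19q13.43. No sequence is shown, because the hg19 genome was not used here.

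By the strand of its peaks 19q13.43 stood apart from the other 2 windows in all 4 libraries. Of the listed genes, 22 lay on the plus and 16 on the minus strand in 19p12. The numbers were 16 and 27 in 19q13.41 and 55 and 24 in 19q13.43. The part of gene strand in the peak strand was not tested. On the minus strand lay 48.2% and 56.3% of the eCLIP peaks in 19p12 against 58.6% and 60.0% of the input peaks. There the groups did not overlap (two-sided exact permutation test, p = 0.33, the smallest possible). In 19q13.41 the values were 56.4% and 60.0% against 76.4% and 60.0%. In 19q13.43 the minus strand held 26.3% and 11.6% in eCLIP against 30.9% and 14.9%, below the 42.8% to 54.6% of the libraries on the rest of the chromosome. Over all windows eCLIP averaged 33.0% ± 7.75 (SD, n = 2) and input 38.0% ± 17.2 (SD, n = 2), a difference of -4.99 percentage points (two-sided exact permutation test, p = 1). In input 1 many minus-strand peaks touch each other: merging left 159 of the 209 distinct window intervals, against 1843 of 1881 in eCLIP replicate 1. With touching peaks merged the difference turned to 1.85 points.

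Among peaks with a p-value of at most 0.001 the eCLIP percentages lay below those of the inputs. The minus strand held 24.9% of 666 peaks in eCLIP replicate 1 (21.8 to 28.3) and 25.4% of 63 in eCLIP replicate 2 (16.3 to 37.3), against 51.5% of 33 in input 1 (35.2 to 67.5) and 50.0% of 16 in input 2 (28.0 to 72.0). On the rest of chromosome 19 the same limit gave 42.5% and 43.1% in eCLIP against 50.8% and 43.3%. The order held within 19q13.43, with 15.5% of 483 peaks (12.6 to 19.03) and 7.50% of 40 (2.58 to 19.9) in eCLIP against 41.2% of 17 (21.6 to 64.0) and 41.7% of 12 (19.3 to 68.0). In 19p12 and 19q13.41 an input value lay below both eCLIP values. Without the stretch from 58200001 to 58500000 the values over all windows were 40.6% and 46.7% against 48.1% and 60.0%, a smaller gap, with all 4 intervals overlapping. A test of 2 libraries against 2 gives no p below 0.33 for any of these, and the limit was one of the alternatives tried.

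**Figure D4:**
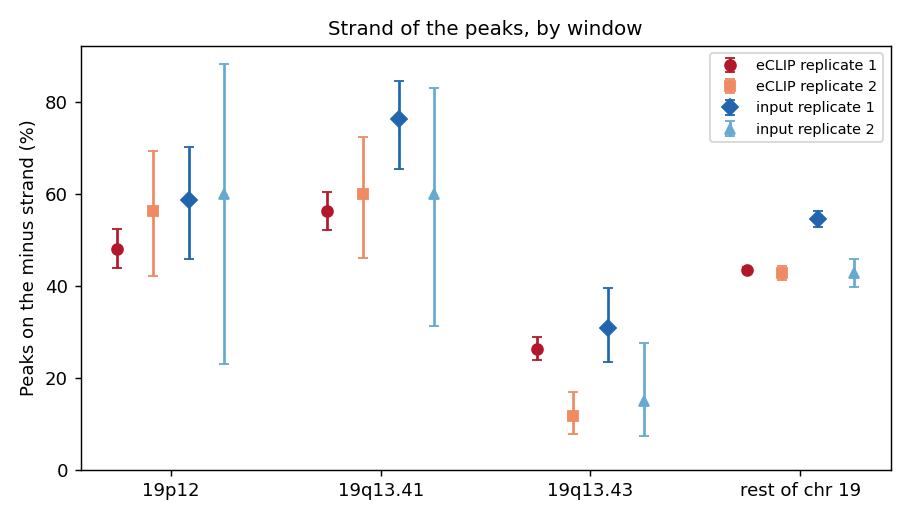
Percentage of peaks on the minus strand in each window and on the rest of chromosome 19, with one point per library and bars for the 95% Wilson interval. In 19q13.43 all 4 libraries lay at 30.9% or lower, and in 19q13.41 all lay at 56.4% or higher.

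Overlapping gene models were common in the clusters. Lines that repeat an interval for another gene, both copies counted, made up 34.4% and 43.2% of the window peaks in eCLIP and 33.6% and 50.0% in the inputs. On the rest of chromosome 19 they made up 18.4% and 24.0% in eCLIP and 21.4% and 20.7% in the inputs. All 4 libraries had more of them in the windows than outside. Peaks facing a peak of the same library on the other strand were rare, at 6 of 2289 (0.262%) in eCLIP replicate 1 and 0 in the other lists, against 0.202% on the rest of the chromosome in eCLIP replicate 1.

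The position of peaks along the gene was set out for the 43 window genes with 20 peaks or more and a span no shorter than 5000 bases. The span ran from the first to the last listed peak of the gene over the 4 libraries and was read in the direction of the strand. Its ends are therefore peaks by construction and need not be the ends of the gene. As the genes are unnamed, the last 10% cannot be tied to a zinc finger exon. The last 10% of the span held 9.58% (8.28 to 11.1) and 14.3% (10.5 to 19.2) of the eCLIP peaks. For the inputs it held 10.6% (6.63 to 16.5) and 27.7% (16.9 to 41.8), the latter from 13 of 47 peaks. The difference of group means was -7.19 percentage points, and the groups overlapped (two-sided exact permutation test, p = 0.67). Without input 2 it was 1.34 points in the other direction. On the rest of chromosome 19 the last 10% held 8.77% and 6.69% in eCLIP against 13.0% and 15.4%, without overlap (p = 0.33 in the exact test, the smallest possible). Whether the windows and the rest differ in this respect was not tested.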

How the data were processed

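The submitters' processing notes name cutadapt, STAR, SAMtools and hg19. Versions, the peak caller, the annotation and the handling of reads with several matches: not given in the sources used here. Each library has 1 peak list deposited by the authors, with a p-value per peak (0 to 0.05) and a deposited score derived from it. The last whole number of a peak's name was taken as its read number; no header says so. Library depth is unknown. The members and lists were chosen with earlier results of these data known; the symbol lists could not be applied to the peaks, because the files pair no names.

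Lines were counted as listed, and overlap needed at least 1 base on the same strand. The gene comparison used lmFit and eBayes with trend (limma 3.58.1, R 4.3.3) on log2 of a gene's peaks per 10000 library peaks, plus 0.5, which understates changes of genes with few peaks; the threshold was an adjusted p of 0.05. The fit and the interval code were tested on simulated data. Shares were compared with exact permutation tests in SciPy 1.17.1. Named genes were, per window, the 5 with most sites of both eCLIP lists and no input, and the 3 of lowest limma p in each direction; named sites were, per window, the 3 with the lowest larger p-value of the 2 eCLIP libraries, and sites found in all 4 libraries. Alternatives covered the p-value limit, minimum reads, repeats, merging, denominators, pseudocount, filter, overlap, replicate block and single libraries left out.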

Additional observations from a re-analysis of the deposited data

How the results depend on the processing

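Differences are eCLIP minus input. None of the window shares passed a test, so their direction is not set. Limited to p-values of at most 0.001, the log2 difference was -0.24 for all windows, -0.35 for 19p12, -0.46 for 19q13.41 and -0.12 for 19q13.43, in place of 0.12, 0.63, 0.06 and 0.09. By reads in peaks it was -0.11 for all windows and -0.40 for 19q13.41, and with at least 5 reads -0.15 for 19p12 and -0.13 for 19q13.41. As a share of all library peaks it was 0.24 for 19q13.43, and without the stretch of 3 bins, an alternative chosen after seeing the data, -0.37. That limit gave 5.10% for sites of both eCLIP lists, -19.4 points for the last 10% of the gene (from few input peaks) and -25.6 points for the minus strand. Leaving out 1 library, the all-window log2 difference ranged from -0.06 to 0.31, that of 19p12 from -0.30 to 1.57, 19q13.41 from -0.53 to 0.66, and 19q13.43 from -0.05 to 0.22; the last 10% of the gene ranged from -15.7 to 1.34 points and the minus strand from -17.2 to 7.20. For limma, the fits without 1 library called 0 to 695 genes higher (695 without eCLIP replicate 2) and 0 to 5 lower (5 without input 1) over all genes, and 0 to 8 higher and 0 lower in the windows; a lone library is there assumed to vary like the other group. Without eCLIP replicate 2, a gene with no peak in either input, such as ENSG00000167562.7, has no spread among its remaining libraries. For such genes that fit cannot tell a difference from peaks missing in the short input lists. No conclusion is therefore drawn from the numbers called without 1 library. Same-numbered libraries share only a number. Their deviations correlated at r = 0.40 across genes, which are not independent. With the replicate block limma called 3 genes higher and 1 lower over all genes and 0 in the windows; the paired log2 differences were 0.11 and 0.14 for all windows, mean 0.12.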
